A study of Mus musculus with 4 samples.

Results

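The 10 genes described here encode cytokines of the IL-1 family (Il1a, Il1b, Il1rn, Il18 and Il33), the IL-6 family (Il6, Il11, Lif and Osm) and the TNF family (Tnf). They were picked by symbol out of 18193 genes on the array, using the probe sets that the platform annotation ties to exactly 1 of these symbols. All 10 were represented, by 13 probe sets. Of the 10 genes, 8 were bright enough to enter the test across 12797 genes, and Il6 and Il11 were not.

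The tissue was the endometriotic lesion of Mus musculus, in which uterine lining grows at a site outside the womb, and each of 4 arrays held RNA of such lesions. Of these arrays, 2 came from mice fed a casein diet, labelled the control, and 2 from mice fed a high-fat diet. Below they are called casein arrays 1 and 2 and high-fat arrays 1 and 2, by the replicate numbers of the labels, and their tissue the casein and the high-fat lesions. The title calls the model immunocompetent, and the study asks how diet relates to redox and inflammatory status. Strain, genotype, age, duration of feeding and the number of animals or lesions behind each array were not stated in any source used here, so the p-values measure only the spread between these samples, which may be technical. The median intensity of an array was 55.1 to 56.5, and the number of arrays limits the precision. An exact two-sided permutation test of 2 against 2 arrays cannot give a p below 0.333, so genes were tested only in limma's model across all genes. The uterine genes Esr1 and Pgr, for the oestrogen and progesterone receptors, had intensities of at least 3319 and 2032 on every array, while both casein arrays, casein array 1 most, had higher gastric genes than the high-fat arrays (values beside Il18) and high-fat array 1 had high skeletal muscle genes (a summed intensity of 29923, against 884.0 to 1098 on the other arrays). The number of genes that stood at least 1 log2 above every other array was 280 on casein array 1 and 14 to 77 on the others.

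IL-1α and IL-1β signal through the same receptor and adaptor, activate NF-kB and are held back by the receptor antagonist that Il1rn encodes. IL-1β and IL-18 are made as precursors that caspase-1 cleaves, while IL-1α and IL-33 are released by damaged cells and act as alarm signals. The IL-6 family shares the receptor subunit gp130 and signals mainly through STAT3, with LIF best known in the uterus for its part in implantation. TNF is a membrane-bound trimer shed by a protease, and in endometriosis these cytokines are usually ascribed to macrophages and to the lesion's own epithelium and stroma. In bulk tissue, fewer cells of a type and less RNA per cell cannot be told apart.

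By limma, none of the 8 tested cytokine genes had a Benjamini-Hochberg adjusted p under 0.05 (smallest adjusted p = 0.863), the background being 0% of 12797 genes called at that threshold. None reached an unadjusted p under 0.05 either, where the background was 4.97% (636 genes). By value, Il1a and Il1rn were higher and Il18, Lif and Osm lower on both high-fat arrays than on both casein arrays, so that 5 of 8 did not overlap between diets, beside 36.0% of all genes tested. By direction, 2 of 8 were higher without overlap (background 16.6%) and 3 of 8 lower without overlap (background 19.3%); of these 3, Lif passed the filter only through its casein arrays. With Il6 and Il11, which overlapped, 5 of all 10 did not overlap, beside 35.7% of all 18193 genes, and 4 of the 10 means were higher and 6 lower (median -0.11). Il1b, Il33 and Tnf, the other 3, overlapped. Of the 8 differences in mean, 4 were positive (background 48.6%) and 4 negative (background 51.4%), where positive means higher on the high-fat diet, with a median log2 difference of -0.01, beside -0.01 over all genes tested. The median absolute log2 difference was 0.33 for the 8 genes and 0.12 for all genes tested, and the median standard error (SE) was 0.22 and 0.13. Members and background are set side by side as a description.

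The promoters of the genes with the largest differences, Il1a, Il1rn, Il18 and Lif, are printed with that of Il6. Il6 lay at the dim end of the array. The printed promoters serve to compare, between genes, letters that resemble sites of inflammatory transcription factors. They are RefSeq windows of build GRCm38.p6, reaching from 250 bases before to 50 bases after a gene's start, read 5′ to 3′ on the gene's strand. Capitals mark matches to NF-kB (GGGA and CC with any 4 bases between), AP-1 (TGANTCA), STAT (TTCNNNGAA), C/EBP (TTGCNNAA) or the antioxidant response element (TGACNNNGC) on either strand, or to a TATA box (TATAAA) on the gene's strand. Il1a lies at chr2:129309923-129310222 (minus strand), the upstream of 3 Il1rn starts at chr2:24336610-24336909 (plus), Il18 at chr9:50554450-50554749 (plus), Lif at chr11:4257318-4257617 (plus) and Il6 at chr5:30012864-30013163 (plus).
Il1a: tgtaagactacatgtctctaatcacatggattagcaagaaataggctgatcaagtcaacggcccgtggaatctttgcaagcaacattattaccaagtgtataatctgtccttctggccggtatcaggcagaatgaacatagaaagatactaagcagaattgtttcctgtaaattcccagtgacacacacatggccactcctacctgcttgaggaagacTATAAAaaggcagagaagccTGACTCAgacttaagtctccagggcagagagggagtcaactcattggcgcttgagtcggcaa
Il1rn: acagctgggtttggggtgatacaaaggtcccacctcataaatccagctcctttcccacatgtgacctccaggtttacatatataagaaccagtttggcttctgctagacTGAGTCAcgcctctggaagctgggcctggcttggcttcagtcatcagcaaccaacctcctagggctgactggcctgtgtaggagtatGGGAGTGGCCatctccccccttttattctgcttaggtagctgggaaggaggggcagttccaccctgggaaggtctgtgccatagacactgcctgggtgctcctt
Il18: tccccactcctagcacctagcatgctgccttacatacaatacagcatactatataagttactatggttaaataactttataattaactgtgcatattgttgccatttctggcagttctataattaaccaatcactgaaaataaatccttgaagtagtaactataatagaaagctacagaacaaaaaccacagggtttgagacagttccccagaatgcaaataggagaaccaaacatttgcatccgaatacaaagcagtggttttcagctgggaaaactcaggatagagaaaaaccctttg
Lif: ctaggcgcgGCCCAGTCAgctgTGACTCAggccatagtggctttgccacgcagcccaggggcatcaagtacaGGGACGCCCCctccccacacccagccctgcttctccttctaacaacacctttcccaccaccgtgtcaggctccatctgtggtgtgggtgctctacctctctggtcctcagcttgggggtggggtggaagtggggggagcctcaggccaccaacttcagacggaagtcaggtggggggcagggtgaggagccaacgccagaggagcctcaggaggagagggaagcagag
Il6: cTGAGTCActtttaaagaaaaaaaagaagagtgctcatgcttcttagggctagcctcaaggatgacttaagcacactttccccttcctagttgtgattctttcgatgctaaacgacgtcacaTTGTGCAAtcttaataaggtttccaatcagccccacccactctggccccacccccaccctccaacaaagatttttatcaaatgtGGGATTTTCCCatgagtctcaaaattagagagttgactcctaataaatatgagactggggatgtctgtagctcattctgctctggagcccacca

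Windows were given for 9 of the 10 genes, Osm being the exception, and there were 13 in all, since Il1rn had 3 and Il33 and Il11 had 2 each. AP-1 matches lay in 5 of the 13 windows (Il1a, Il1rn, Il6, Il11 and Lif), beside 7.81% of 32851 windows of the same length. NF-kB matches lay in 4 of the 13 (Il1rn, Il6, Lif and Tnf), beside 20.7%. In Tnf the match lay past the start site, beginning at base 30 from it. The Il6 window held a pair of overlapping NF-kB matches, 1 on each strand, which start 44 and 43 bases before the start site. TATA box letters lay in 5 of the 13 windows, of Il1a, Il1b, Il33 and Tnf (background 8.32%). These letters began 29 to 32 bases before the start site, except in the upstream Il33 window, where they began 203 bases before. C/EBP matches lay in 2 of the 13, of Il33 and Il6 (background 10.8%). The antioxidant response element matched only Lif among these windows (background 12.4%), where its match does not overlap the AP-1 match that follows it. None of the 13 held the STAT letters (background 8.30%), and the Il18 window held none of the 6 motifs. The 2 downstream Il1rn windows overlap each other. A match is a description of these letters and was not measured as a bound site.

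The deposited values carry no detection calls, so dimness was read against the array itself. The filter stood at the 40th percentile of the array's probe sets, controls aside, an intensity of 33.9, where intensity is the authors' linear unit. As a further mark, 80 probe sets of olfactory and vomeronasal receptor genes, which lesions are not known to express, had a median of 7.38 and a 95th percentile of 28.5. Il6 (27.5th percentile of probe sets) and Il11 (33.9th) lay below both the filter and that mark. Lif (41.2nd) and Il1a (46.7th) lay just above the filter, and 5% of the receptor probe sets were as bright as the filter or brighter. Osm (53.3rd) and Tnf (59.3rd) lay near the middle of the array. Il1rn (72.1st), Il1b (80.9th), Il18 (85.1st) and Il33 (89.3rd) lay clear of the dim end. Percentiles place each probe set on the array and do not rank the genes against each other, because probe sets differ in brightness for the same amount of RNA.

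**Figure D1:**
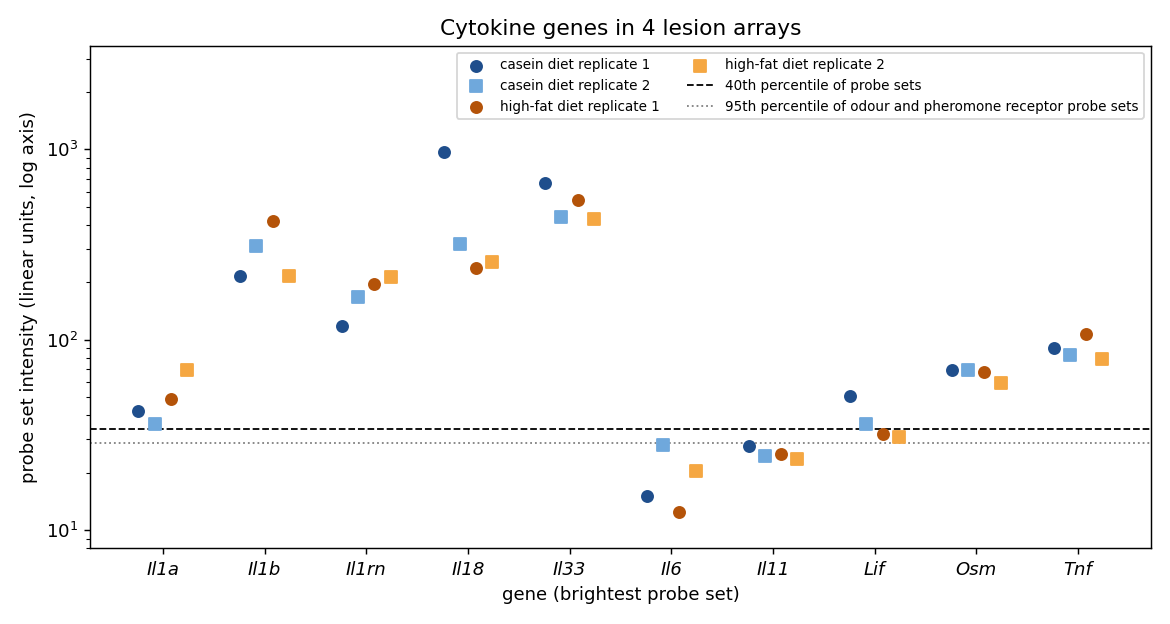
Probe set intensity (linear units on a log axis) of the brightest probe set of each cytokine gene, with 1 point for each of the 4 arrays. The dashed line is the filter at 33.9 and the dotted line the 95th percentile of 80 odour and pheromone receptor probe sets (28.5); all 4 points of Il6 and Il11 lie below both lines, and Il18 has 1 point, casein array 1 at 964.7, far above its other 3.

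Of the IL-1 receptor agonists, Il1a, which encodes IL-1α, had intensities of 42.4 and 36.2 in the casein lesions, and 48.5 and 69.3 in the high-fat lesions. Both high-fat arrays were above both casein arrays, and high-fat array 2 was the highest. The difference in mean log2 intensity, high-fat minus casein diet, was 0.57 (SE 0.22, 95% interval -0.07 to 1.20), or 1.48-fold, with an adjusted p of 0.863 in limma. It was 0.31 without high-fat array 2 and 0.83 without high-fat array 1, so its size rests on which high-fat array is used. With 16 added to each intensity before log2, which shrinks the differences of dim probe sets by construction, it was 0.43.

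Il1b, the gene of IL-1β, had intensities of 215.6 and 309.1 in the casein lesions, and 418.6 and 214.9 in the high-fat lesions. The diets overlapped completely: the highest and the lowest value were both high-fat arrays. Between the means the log2 difference was 0.22 (SE 0.41, 95% interval -0.93 to 1.37; limma adjusted p = 0.925). It became -0.26 without high-fat array 1 and -0.04 without casein array 1. That interval holds 0 and differences of either sign, so these arrays do not settle a direction for Il1b.

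The array with the highest Il1b also had the highest neutrophil genes. S100a8, which encodes a calprotectin subunit of neutrophils, had intensities of 464.5 and 849.4 in the casein lesions, and 3477 and 687.7 in the high-fat lesions. S100a9, its partner, had 329.2 and 549.9 in the casein lesions, and 1180 and 415.8 in the high-fat lesions. The neutrophil chemokine receptor gene Cxcr2 had 59.0 and 84.0 in the casein lesions, and 138.1 and 61.3 in the high-fat lesions. These 3 genes were picked after their values were seen. Of the 9 tested markers of the neutrophil list, high-fat array 1 was highest for 8, Ltf being the exception, but only 4 also had casein array 2 second as Il1b did, and none had all 4 arrays in the order of Il1b. Of the 11 listed markers on the array, 9 had a higher mean on the high-fat diet (median 0.48); among the 9 tested, of which 2 passed the filter only through the high-fat arrays, the median of 0.51 became -0.004 without high-fat array 1. Its summed intensity was 5713 to 11734 in the casein lesions and 6570 to 10904 in the high-fat lesions, most of it in 3 arrays from Ltf, which uterine glands also make. The granule genes Mpo and Ngp were below the filter (means 25.3 and 24.7). Of 13 macrophage markers, 10 were higher (median 0.10). The lower ones were Cd163 (-1.06, above the filter only through the casein arrays), Timd4 (-0.59, below the filter) and Mrc1 (-0.12). Among the 12 tested, 10 were higher (median 0.19), but 7 were without high-fat array 1 (median 0.12). The summed intensity, most of it Lyz2, was 20231 to 21723 in the casein lesions and 20771 to 25137 in the high-fat lesions. The part of either cell type in the Il1b values was not tested.

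Il1rn, the IL-1 receptor antagonist gene, had intensities of 117.8 and 167.0 in the casein lesions, and 196.6 and 212.6 in the high-fat lesions at its brightest probe set. Both high-fat arrays were higher, and casein array 1 was the lowest. High-fat minus casein diet, the log2 difference was 0.54 (SE 0.21, 95% interval -0.04 to 1.13), or 1.46-fold, with a limma adjusted p of 0.863. A dimmer probe set of the gene gave the same picture, with 40.8 and 56.2 in the casein lesions, and 63.2 and 77.5 in the high-fat lesions and a difference of 0.55 (SE 0.21). The remaining probe set did not: its intensities were 56.6 and 67.4 in the casein lesions, and 62.8 and 57.5 in the high-fat lesions, its diets overlapped, and its difference was -0.04 (SE 0.13). The RefSeq windows show several starts for this gene, but which transcripts each probe set reads is not given in the sources used here. The median over the 3 probe sets differed by 0.18. At the brightest probe set the difference was 0.29 without casein array 1 and 0.80 without casein array 2.

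Il18 had the largest difference of the 10 genes, and its size rested mostly on 1 array. Its intensities were 964.7 and 318.3 in the casein lesions, and 237.2 and 256.6 in the high-fat lesions. Both casein arrays were higher, but casein array 2 stood close to the high-fat arrays and far from casein array 1. The log2 difference was -1.17 (SE 0.59, 95% interval -2.83 to 0.50; limma adjusted p = 0.863), which is 2.25-fold higher on the casein diet. It was -0.37 without casein array 1 and -1.97 without casein array 2, the latter with the smallest adjusted p of any of these genes in any setting (0.0972).

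Il18 is made by many epithelia, and casein array 1 was the highest array for 8 of 12 endometrial epithelium markers, as for Il18; 5 of the 12 had all 4 arrays in the order of Il18. Among these 5 are Krt8 and Krt19, picked after their values were seen. Krt8, an epithelial keratin gene, had intensities of 10009 and 2729 in the casein lesions, and 1080 and 1796 in the high-fat lesions. Krt19, a keratin of ducts and mesothelium, had 5236 and 1053 in the casein lesions, and 261.3 and 771.7 in the high-fat lesions. For both, casein array 1 was highest, followed by casein array 2, high-fat array 2 and high-fat array 1. All 12 endometrial epithelium markers had a lower mean on the high-fat diet (median -0.73). Without high-fat array 1, 9 of 12 did (median -0.27), and without casein array 2, 10 of 12 (median -1.27). Their summed intensity was 12124 to 27665 in the casein lesions and 5669 to 10892 in the high-fat lesions. Klf5, Prom1, Lgr5 and Pax8 overlapped between diets and were not highest in casein array 1 (-0.45, -0.42, -0.27 and -0.13). Several of the 12, such as the keratins, are general epithelial genes, so the list does not separate endometrial from gastric epithelium. All 11 gastric markers on the array were lower too (median -5.01), 3 of them below the filter and 3 above it only through the casein arrays, with a summed intensity of 10255 to 70591 in the casein lesions and 424.7 to 436.8 in the high-fat lesions, and the parietal cell gene Atp4a was below the filter. Of 11 intestinal markers 8 were lower and 3 higher (median -0.53). However, 8 of the 11 lay below the filter, Cdx1, Cdx2 and Muc2 among them. Another, Vil1, was above it only through casein array 1, at 391.7 against 14.8 to 30.7 on the other arrays. The intestinal sum was 377.3 to 3827 in the casein lesions and 254.4 to 287.0 in the high-fat lesions. Of 8 mesothelium markers, Krt19 included, 7 were lower (median -1.59), 2 of the 8 being below the filter and 2 above it only through the casein arrays. Their summed intensity was 1753 to 6178 in the casein lesions and 759.0 to 1300 in the high-fat lesions. Except in high-fat array 1, most of that sum was Krt19. The part of these epithelia in the Il18 values was not tested.

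**Figure D2:**
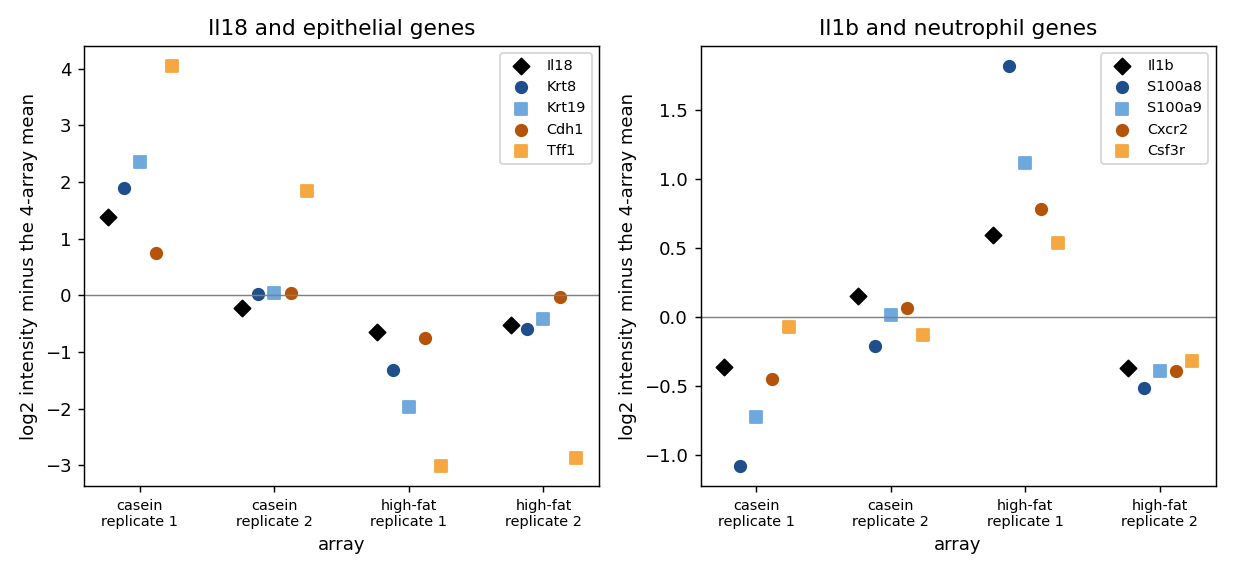
Log2 intensity minus the gene's 4-array mean, for each array, of Il18 with 4 epithelial genes (left) and of Il1b with 4 neutrophil genes (right); the companion genes were picked after their values were seen. Casein array 1 is the highest array for all 5 genes on the left, and high-fat array 1 is the highest for all 5 on the right. On the left, Tff1 is from the gastric list. Over the whole lists, casein array 1 was highest for 8 of 12 endometrial epithelium markers and high-fat array 1 for 8 of 9 tested neutrophil markers.

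Il33, a nuclear alarm cytokine of stroma, endothelium and epithelium, had intensities of 665.7 and 440.9 in the casein lesions, and 541.8 and 428.9 in the high-fat lesions. The diets overlapped, with a casein array highest and a high-fat array lowest. For Il33 the log2 difference was -0.17 (SE 0.26, 95% interval -0.91 to 0.58; limma adjusted p = 0.912), and it was 0.13 without casein array 1. The 2 replicates of each diet were as far apart as the diets: the SD between replicates was 0.42 log2 on the casein diet and 0.24 on the high-fat diet.

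In the IL-6 family, Il6 had intensities of 15.0 and 28.02 in the casein lesions, and 12.5 and 20.5 in the high-fat lesions. All 4 values lay below the 95th percentile of the receptor probe sets, and 13.8% of those probe sets were brighter than its mean. The log2 difference in the fit without a filter was -0.36 (SE 0.42, 95% interval -1.55 to 0.83; limma adjusted p = 0.882), with overlapping diets. Il11, a fibroblast cytokine of decidualisation, had 27.7 and 24.4 in the casein lesions, and 24.95 and 23.7 in the high-fat lesions, with a difference of -0.10 (SE 0.11; limma adjusted p = 0.884). The diets overlapped for both genes. Of the receptor probe sets, 6.25% were brighter than the mean of Il11, beside 5% for Lif and for Il1a. For Il6 and Il11 the probe set gives no clear sign of a level above the dim end of the array. A difference cannot be read from such values.

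Lif had intensities of 50.7 and 35.9 in the casein lesions, and 31.9 and 30.6 in the high-fat lesions. Both casein arrays were higher, casein array 1 most, and both high-fat arrays lay below the filter intensity. For Lif the log2 difference was -0.45 (SE 0.20, 95% interval -1.02 to 0.12; limma adjusted p = 0.863), which is 1.37-fold higher on the casein diet. It was -0.20 without casein array 1 and -0.70 without casein array 2. A fainter Lif probe set, at 10.8 and 9.63 in the casein lesions, and 10.01 and 8.69 in the high-fat lesions, was dimmer than 38.8% of the receptor probe sets and gave -0.13 (SE 0.13).

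Osm, the gene of oncostatin M, a cytokine of macrophages and neutrophils, had intensities of 68.8 and 69.0 in the casein lesions, and 67.8 and 59.4 in the high-fat lesions. The diets did not overlap, but 3 of the 4 arrays lay between 67.8 and 69.0. The log2 difference was -0.12 (SE 0.11, 95% interval -0.44 to 0.20; limma adjusted p = 0.868) and became -0.02 without high-fat array 2. Tnf had intensities of 90.3 and 82.5 in the casein lesions, and 106.7 and 79.2 in the high-fat lesions, with a high-fat array at either end. Its log2 difference was 0.09 (95% interval -0.44 to 0.62; limma adjusted p = 0.932), or -0.12 without high-fat array 1, the array with the highest Il1b.

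**Figure D3:**
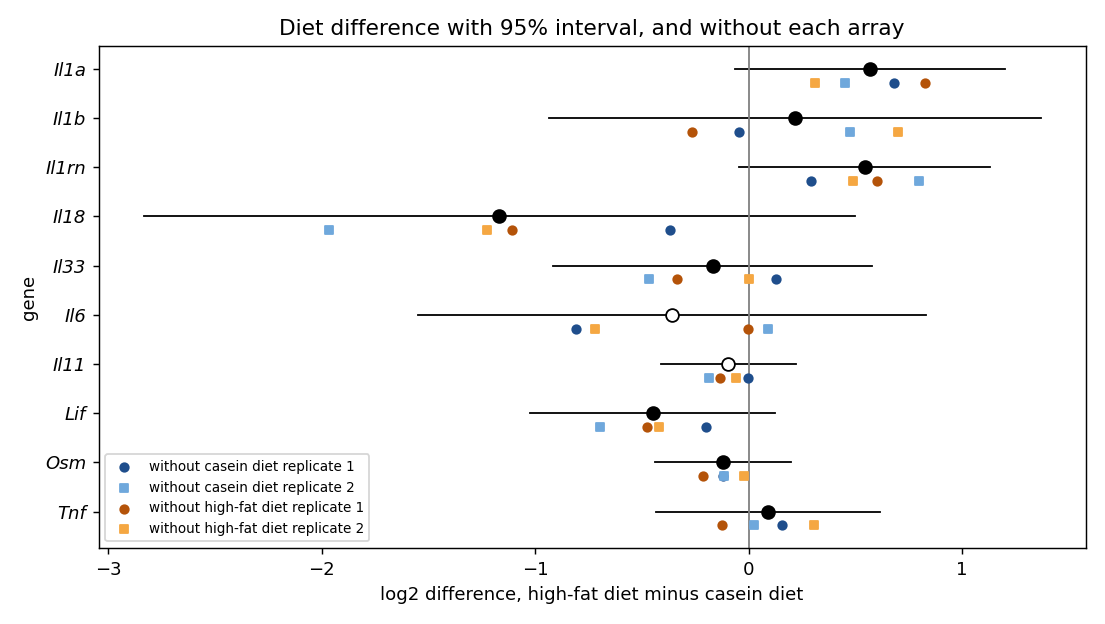
Log2 difference, high-fat minus casein diet, of each cytokine gene: black points are the fitted values with their 95% intervals (open for Il6 and Il11, which were below the filter), and coloured points the same value without each array. Every interval crosses 0, and the points without 1 array fall on both sides of 0 for Il1b, Il33, Il6 and Tnf.

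The receptors and signalling genes of these cytokines were then read from the same fit. Across 9 lists, 117 genes besides the 10 cytokines were tested, of which 48 had a higher and 69 a lower mean in the high-fat lesions (median -0.04). None passed after adjustment. At an unadjusted p under 0.05 there were 9, or 7.69%, beside 4.97% of all genes tested: Saa3, Hp, Lifr and Igfbp3 were higher, and Lcn2, Rel, Vcam1, Traf1 and Stat3 lower.

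Among 8 IL-1 family receptor genes, 4 were higher and 4 lower, with a median of 0.07 (-0.03 to 0.22 when 1 array was left out). The genes of the IL-18 receptor stood lower together. Il18r1, the binding chain, had intensities of 387.1 and 279.6 in the casein lesions, and 222.5 and 269.5 in the high-fat lesions (log2 difference -0.43, SE 0.22). Il18rap, the accessory chain, had 199.4 and 144.3 in the casein lesions, and 121.3 and 126.2 in the high-fat lesions (-0.45, SE 0.19). Without casein array 1 these differences were -0.19 for Il18r1 and -0.22 for Il18rap. Neither overlapped between diets. Of the 8 receptor genes, 1 was higher and 2 lower without overlap, beside 16.6% and 19.3% of all genes tested. Casein array 1 was the highest for both IL-18 receptor genes, as it was for Il18. This receptor marks T and NK cells, of whose 12 tested markers 11 were lower (median -0.62, or -0.24 without casein array 1), with a summed intensity of 2016 to 3683 in the casein lesions and 1719 to 1892 in the high-fat lesions. The part of these cells in the receptor values was not tested. Il1rap, the accessory chain of the IL-1 and IL-33 receptors, stood the other way, with 77.6 and 78.1 in the casein lesions, and 120.1 and 89.0 in the high-fat lesions (0.41, SE 0.18; 0.19 without high-fat array 1). Its other 4 probe sets were below the filter and gave -0.11 to 0.71. The decoy receptor gene Il1r2 was highest in high-fat array 1, at 231.1 against 97.3 to 113.6 in the others (0.62, SE 0.39; 0.11 without that array).

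No gene that matures or relays IL-1 signals reached an unadjusted p under 0.05. In the maturation list, 5 of 11 were higher and 6 lower (median -0.04). Casp1, the protease that cleaves the precursors of IL-1β and IL-18, had intensities of 575.9 and 452.3 in the casein lesions, and 421.6 and 438.2 in the high-fat lesions (-0.25, SE 0.16), without overlap, but differed by -0.07 without casein array 1. Nlrp3, the inflammasome sensor gene, differed by 0.02 (SE 0.24) and overlapped. Of 11 adaptor genes, 8 were higher and 3 lower (median 0.05). Irak3, an inhibitor of IL-1 receptor signalling found in macrophages, had 97.2 and 97.7 in the casein lesions, and 159.5 and 113.0 in the high-fat lesions (0.46, SE 0.20; 0.21 without high-fat array 1), and its other probe set, below the filter, gave 0.37.

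Lifr, the gene of the LIF receptor, had the smallest unadjusted p of the 7 IL-6 family receptor genes. Its intensities were 409.8 and 408.8 in the casein lesions, and 778.5 and 628.1 in the high-fat lesions. Both high-fat arrays were higher than both casein arrays, which nearly coincided, while the high-fat arrays lay farther apart. The log2 difference was 0.77 (SE 0.14, 95% interval 0.37 to 1.18; limma unadjusted p = 0.00656, adjusted p = 0.856) and ranged from 0.62 to 0.93 when 1 array was left out. A dimmer probe set of Lifr, looked up after these values were seen, had 34.3 and 29.7 in the casein lesions, and 112.6 and 139.5 in the high-fat lesions. Its difference was 1.97 (SE 0.16; limma adjusted p = 0.616 over all probe sets). A further one below the filter gave 0.33 (SE 0.23) with overlapping diets. The ligand gene Lif stood the other way, as given above. All 10 endothelial markers also had a higher mean on the high-fat diet (median 0.52, or 0.28 to 0.76 when 1 array was left out), with a summed intensity of 1662 to 2208 in the casein lesions and 2805 to 2946 in the high-fat lesions, and the part of those cells in the Lifr values was not tested.

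The shared subunit gene Il6st, for gp130, had intensities of 1837 and 1929 in the casein lesions, and 1660 and 1618 in the high-fat lesions (-0.20, SE 0.09), but its other probe sets above the filter gave -0.25, 0.06 and -0.001. Il6ra, the IL-6-binding chain, and Osmr, the oncostatin M receptor gene, overlapped (0.10, SE 0.20, and 0.20, SE 0.14). Of the 7 receptor genes, 4 were higher and 3 lower, with a median of 0.10 (-0.07 to 0.12 when 1 array was left out).

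Downstream, 8 of 10 JAK-STAT3 genes were lower and 2 higher, with a median of -0.07, beside 51.4% lower over all genes tested. When 1 array was left out, 6 to 8 of the 10 were lower, with medians of -0.19 to -0.06. Stat3, the family's transcription factor, had 1386 and 1395 in the casein lesions, and 1171 and 1095 in the high-fat lesions (-0.30, SE 0.10; limma unadjusted p = 0.0385, adjusted p = 0.863). Its other 3 probe sets gave -0.06 to -0.19. Socs3, the feedback inhibitor that STAT3 induces, had 894.7 and 778.5 in the casein lesions, and 1023 and 655.2 in the high-fat lesions, with overlap (-0.03, SE 0.26). Of 16 tested genes that the IL-6 family induces through STAT3, 7 were higher and 9 lower (median -0.02, or -0.20 to 0.22 when 1 array was left out), and the named members stood in opposite directions.

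Saa3, an acute-phase apolipoprotein gene, had intensities of 1109 and 1060 in the casein lesions, and 7031 and 5061 in the high-fat lesions (2.46, SE 0.19; limma unadjusted p = 0.000304, adjusted p = 0.849). Hp, for the haemoglobin-binding protein haptoglobin, had 314.4 and 527.9 in the casein lesions, and 907.0 and 1120 in the high-fat lesions (1.31, SE 0.31). Igfbp3, which binds insulin-like growth factors, had 324.1 and 590.1 in the casein lesions, and 1160 and 3146 in the high-fat lesions (2.13, SE 0.62; 1.41 without high-fat array 2). Lcn2, the siderophore-binding lipocalin of neutrophils and epithelia, stood the other way, with 2928 and 3592 in the casein lesions, and 1853 and 1612 in the high-fat lesions (-0.91, SE 0.16). The diets did not overlap for any of these 4 genes, which were named for their small p. Of the 16 tested genes of the list, 4 were higher and 2 lower without overlap, beside 16.6% and 19.3% of all genes tested. Saa3, Hp, Igfbp3 and Lcn2 all answer to several inflammatory or hormonal signals, and which signal set these levels was not tested.

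In the TNF pathway, the receptor genes Tnfrsf1a and Tnfrsf1b differed by 0.09 (SE 0.13) and 0.07 (SE 0.20), and the shedding protease gene Adam17 by 0.10 (SE 0.11), all with overlap. The other 2 Adam17 probe sets, above the filter, gave -0.05 and -0.02, and the other Tnfrsf1b probe set, below it, gave -0.21. Of 17 receptor and proximal signalling genes, 8 were higher and 9 lower (median -0.02). Traf1, an adaptor of TNF receptors in lymphocytes and dendritic cells that NF-kB induces, had 276.6 and 213.2 in the casein lesions, and 147.6 and 174.3 in the high-fat lesions (-0.60, SE 0.18; limma unadjusted p = 0.0339, adjusted p = 0.863), and its other probe set gave -0.48. All 9 tested dendritic cell markers had a lower mean on the high-fat diet (median -0.57, or -0.29 with 8 of 9 lower without casein array 1), with a summed intensity of 1510 to 1561 in the casein lesions and 920.1 to 962.6 in the high-fat lesions; the part of these cells in the Traf1 values was not tested.

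Of 23 tested genes that IL-1 and TNF induce through NF-kB, 8 were higher and 15 lower in the high-fat lesions (median -0.14), and the median lay between -0.36 and -0.01 when 1 array was left out. Those lower in both high-fat arrays included Rel, an NF-kB subunit gene of lymphoid and myeloid cells, with 55.4 and 59.2 in the casein lesions, and 45.3 and 40.3 in the high-fat lesions (-0.42, SE 0.11). Vcam1, a leukocyte adhesion molecule gene, had 1155 and 906.7 in the casein lesions, and 707.6 and 652.9 in the high-fat lesions (-0.59, SE 0.16), and its other probe sets gave -0.61 and -0.39. Ptgs2, the inducible cyclooxygenase gene, had 200.8 and 199.4 in the casein lesions, and 138.0 and 67.2 in the high-fat lesions (-1.06, SE 0.39), and differed by -0.54 without high-fat array 2 and -1.58 without high-fat array 1. The other Ptgs2 probe set, below the filter, gave -0.36. The inhibitor gene Nfkbia overlapped (0.08, SE 0.10). Cxcl5, a neutrophil-attracting chemokine gene, had 145.3 and 478.5 in the casein lesions, and 468.5 and 194.5 in the high-fat lesions: as for Il1b, casein array 2 and high-fat array 1 were the higher arrays.

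**Figure D4:**
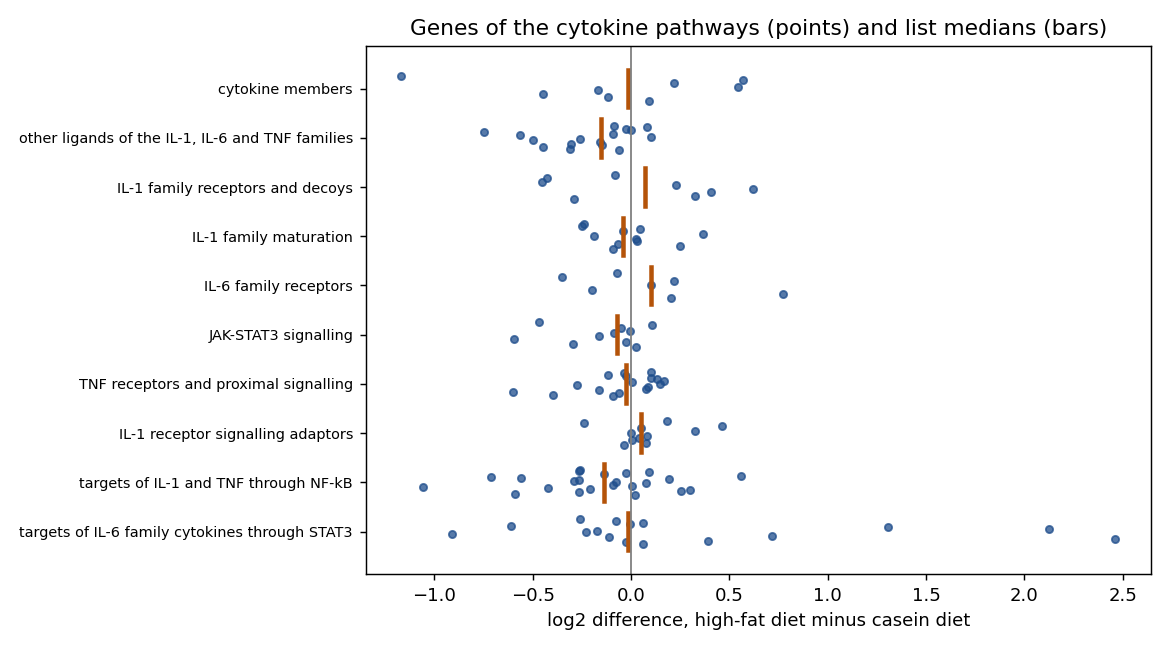
Log2 difference, high-fat minus casein diet, of every tested gene in the cytokine group and in 9 lists of related genes, 1 point per gene, with an orange bar at each list's median. The medians lie between -0.15 and 0.10, and the points farthest to the right are Saa3 (2.46) and Igfbp3 (2.13).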

How the data were processed

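RNA of endometriotic lesions was hybridised to 4 Affymetrix arrays, per the labels' protocols from 0.1 µg total RNA. The authors deposited 1 linear intensity per probe set and array, and the near-equal array medians show a shared scale. GCOS and RMA are named in the submitters' processing notes, with no version or order. A shared scale hides a shift shared by most genes.

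Log2 was taken with no pseudocount. Of 45101 probe sets (64 controls), 34945 had 1 gene symbol, 932 several and 9160 none. The gene identifiers of all 10 cytokine genes matched the mouse reference table (GRCm38.p6) with the same symbol. Each of 18193 genes was read from its probe set of highest mean log2 value, and the 12797 at or above the 40th percentile were tested with limma 3.58.1 (R 4.3.3; lmFit, eBayes), two-sided, adjusted over all of them by Benjamini and Hochberg's method (3.80 total degrees of freedom). Il6 and Il11 were read from the fit without the filter, and further probe sets from a fit of all probe sets. Means are geometric. The members, lists and tests were chosen with earlier results of these data known. Besides the members, the text names up to 4 genes of smallest p per pathway list, and others added after their values were seen. Alternatives were the replicate block, other scaling, filters, pseudocount and probe set choices, an intensity trend and leaving out each array. Figures used matplotlib 3.10.9.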

Additional observations from a re-analysis of the deposited data

How the results depend on the processing

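Of 130 values of the 10 genes under 13 alternatives, 6 had the opposite sign, each when 1 array was left out. Il1b ranged from -0.26 (without high-fat array 1; -0.04 without casein array 1) to 0.70. Il33 ranged from -0.47 to 0.13 (without casein array 1; 0.00015 without high-fat array 2). Il6 ranged from -0.81 to 0.089 (without casein array 2), and Tnf from -0.12 (without high-fat array 1) to 0.31. The other 6 genes kept their sign in all 13. None of the 10 was called in any alternative, and the lowest adjusted p was 0.0972, for Il18 without casein array 2. Over all genes, 0 were called in the alternatives with all arrays, and 0 to 17 when 1 array was left out, the 17 without casein array 2, where the lone casein array is assumed to vary like the others. With the replicate block 0 genes were called (smallest adjusted p = 0.911). The numbers share no stated pairing, and deviations of same-numbered arrays correlated at -0.02 across genes. Quantile normalisation and median centring moved the median of all genes to 0.001 and -0.02 and turned no member's sign. Values near the dim end limit what Il6, Il11, Lif and Il1a can show.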

Other observations

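Other ligands of these families had mostly lower values on the high-fat diet: of 22 on the array, 18 were lower and 4 higher (median -0.10), and of 16 tested, 14 were lower and 2 higher (median -0.15), beside 51.4% lower over all genes, and none passed limma's test after adjustment. Ltb, the lymphotoxin β gene of lymphocytes, had intensities of 878.0 and 625.2 in the casein lesions, and 505.6 and 543.1 in the high-fat lesions (log2 difference -0.50, SE 0.20). Tnfsf14, the gene of the T cell ligand LIGHT, had 50.7 and 39.7 in the casein lesions, and 28.7 and 37.7 in the high-fat lesions (-0.45, SE 0.21). Its value on high-fat array 1 lay below the filter intensity, and its other probe set, below the filter, gave 0.05. Il1f6, the older symbol of the IL-36α gene, an epithelial IL-1 relative, had 112.5 and 150.3 in the casein lesions, and 69.0 and 111.8 in the high-fat lesions (-0.57, SE 0.31). The diets did not overlap for these 3 genes, which were named for their small p. Of the 16 tested ligands, 0 were higher and 5 lower without overlap, beside 16.6% and 19.3% of all genes tested. Fasl, for the death ligand of cytotoxic cells, was highest in casein array 1, at 185.0 against 62.0 to 87.1 in the other arrays (-0.75, SE 0.47), and overlapped. Ltb, Tnfsf14 and Fasl were all highest in casein array 1, the array where the T and NK cell markers summed to 3683, against 1719 to 2016 in the other arrays; the part of those cells in these values was not tested. Leaving out 1 array gave list medians of -0.14 (casein array 1), -0.26 (casein array 2), -0.09 (high-fat array 1, with 11 of 16 lower) and -0.27 (high-fat array 2). The smallest differences when 1 array was left out were -0.25 for Ltb and -0.17 for Fasl (casein array 1), and -0.25 for Tnfsf14 and -0.22 for Il1f6 (high-fat array 1).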
